A study of Mus musculus with 2 samples.

Results

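The Zic genes described here are Zic1, Zic2, Zic4 and Zic5, taken by gene symbol through the gene identifier. They are 4 of the 43346 Ensembl genes in the tables, with 19 of the 103639 annotated transcripts. RNA was sequenced from mouse embryonic facial prominence, the swellings that build the face, of strain B6NCrl at embryonic day 10.5. There was 1 group of 2 biological replicates and no treatment or control: replicate 1 pooled 69 embryos, replicate 2 pooled 51, and both pooled males and females. Each library was made from 10 ng of total RNA longer than 200 nt with spike-in controls. No contrast between groups could be made, and every value describes these 2 pools.

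Zic proteins are zinc finger transcription factors related to the Gli factors of the Hedgehog pathway. They are known for roles in the dorsal neural tube, the neural crest and the mesenchyme of the head, and mutations of human ZIC2 are a cause of holoprosencephaly, in which the forebrain fails to divide. Heterozygous loss of ZIC1 together with ZIC4 has been linked to Dandy-Walker malformation of the cerebellum. The genes lie in head-to-head pairs, Zic1 beside Zic4 and Zic5 beside Zic2.

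Zic coding sequences resemble each other, which matters for how reads can be placed. The longest run of identical letters between the coding sequences of Zic2 and Zic5, the pair on chromosome 14, is shown because it sets the stretch over which a read could match both genes. It is written 5′ to 3′ on the coding strand, from GENCODE M21 transcripts on GRCm38.
Zic2 and Zic5: cgctccgagaacctcaagatccacaa
The run was 26 bases long, at chr14:122476708-122476733 on the plus strand and chr14:122463906-122463931 on the minus strand. Zic4 and Zic5 shared a run of 21 bases, and Zic1 and Zic5 shared 20. These are the shortest of the 6 pairs: the pairs among Zic1, Zic2 and Zic4 shared longer runs, so the stretch over which a read could match 2 genes is longer there. Over windows of 100 bases of their annotated transcripts, the 4 genes had 0 windows in common. Zic1 and Zic2 shared none of their 5624 and 2777 windows with any other annotated gene, counting both strands.

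Zic5 was the highest of the 4 genes, followed by Zic4, Zic2 and Zic1, and all 4 were at the low end of the detected genes. Levels are given in TPM, the share of all transcripts after division of reads by transcript length, which allows genes to be compared. All 4 genes reached a TPM of 1 in both pools, the level called detected here, and a gene below it in either pool is called undetected. In bulk tissue, fewer cells of a type and less RNA per cell cannot be told apart. The median of the 12494 detected protein coding genes was 20.1 TPM, above every Zic gene.

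Zic5 (ENSMUSG00000041703) lies at chr14:122456795-122465677 on the minus strand. It was at 5.23 TPM in replicate 1 and 5.78 TPM in replicate 2, or 5.51 ± 0.389 TPM (SD, n = 2). The counts were 385 and 422 reads. Its mean TPM was above that of 20.9% of detected protein coding genes.

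Zic4 (ENSMUSG00000036972) lies at chr9:91362413-91389348 on the plus strand. It was at 4.61 TPM in replicate 1 and 3.36 TPM in replicate 2, or 3.99 ± 0.884 TPM (SD, n = 2), the widest spread of the 4 genes. The counts were 293.88 and 224.33 reads. Zic4 was the only 1 of the 4 genes with a higher TPM in replicate 1, and it stood above 15.9% of detected protein coding genes.

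Zic2 (ENSMUSG00000061524) lies at chr14:122475435-122479852 on the plus strand. It was at 1.87 TPM in replicate 1 and 1.98 TPM in replicate 2, or 1.93 ± 0.0778 TPM (SD, n = 2), from 110 and 119 reads. The gene tied to holoprosencephaly was thus among the lowest detected genes, above 5.75% of them.

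Zic1 (ENSMUSG00000032368) lies at chr9:91358058-91365810 on the minus strand. It was at 1.31 TPM in replicate 1 and 1.38 TPM in replicate 2, or 1.35 ± 0.0495 TPM (SD, n = 2). Its 184 and 201 reads exceeded those of Zic2, but its main transcript is 5606 bases long against 2440 for that of Zic2, so it was lower per length. It stood above 1.74% of detected protein coding genes.

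**Figure D1:**
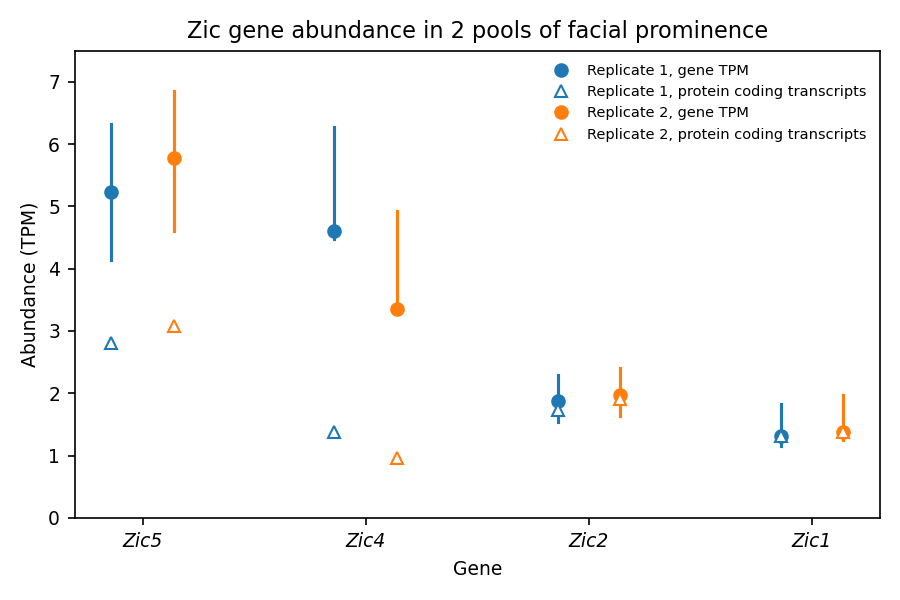
Abundance in TPM of each Zic gene in replicate 1 (blue) and replicate 2 (orange). Filled circles are the gene's TPM, vertical lines the interval deposited for it by the authors, and open triangles the TPM of its protein coding transcripts alone, which for Zic4 fall to 1.38 and 0.96.

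The deposited TPM intervals, whose level is not given in the sources used here, ran from 4.13 to 6.32 for Zic5 in replicate 1 and from 4.61 to 6.86 in replicate 2. Those of Zic4 ran from 4.48 to 6.28 and from 3.27 to 4.92, so they overlapped each other and those of Zic5. The intervals were built around a posterior mean, which for Zic4 was 5.38 and 4.09 TPM, above the maximum likelihood values used here. For Zic1 the posterior means were 1.46 and 1.58 TPM. By posterior mean, Zic4 (5.38) exceeded Zic5 (5.18) in replicate 1, whereas Zic5 (5.71) exceeded Zic4 in replicate 2.

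The order of levels was compared on log2(TPM + 0.1), with a replicate spread pooled over the 200 protein coding genes nearest in level to each gene and a 95% interval from it. Of the 6 pairs, 5 differed by more than that spread. Zic5 exceeded Zic1 3.88-fold (interval 2.54 to 5.90) and Zic2 2.77-fold (1.69 to 4.52). Zic4 exceeded Zic1 2.79-fold (1.84 to 4.24). Zic2 and Zic1, neighbours in the order, differed 1.40-fold with an interval of 0.801 to 2.45, within the spread.

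The other neighbours were closer calls. Zic4 exceeded Zic2 1.99-fold (1.22 to 3.25), with 2.39-fold in replicate 1 and 1.66-fold in replicate 2, and replicate 2 alone did not pass (log2 difference 0.73). Zic5 exceeded Zic4 1.39-fold (1.01 to 1.91), with 1.13-fold in replicate 1 and 1.70-fold in replicate 2. That difference was lost without replicate 2 (log2 difference 0.18), with posterior mean TPM (0.21), with a pseudocount of 0.01 (0.48) and with the spread pooled over 50 genes (0.47). An exact permutation test of 2 against 2 values cannot go below p = 0.33, so none was run.

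The transcript tables showed that the gene levels of Zic5 and Zic4 were made up differently from those of Zic1 and Zic2. Of the 19 transcripts, 10 are annotated as protein coding, 5 as retained introns and 4 as processed transcripts. Zic1 and Zic2 were carried almost wholly by 1 protein coding transcript each. Large parts of Zic5 and Zic4 TPM were assigned to transcripts not annotated as coding. The assignment is an estimate that divides reads among transcripts with shared exons.

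Zic1-201 received 177.62 of the 184 Zic1 reads in replicate 1 and all 201 in replicate 2, which is 93.2% and 100% of Zic1 TPM. Zic1-202, also protein coding, received 6.38 and 0 reads. The posterior estimate was less concentrated, with a mean share of 82.1% for Zic1-201. It gave 10.5% and 10.6% to the 395-base Zic1-203, which had 0 reads in both pools by maximum likelihood.

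Zic2-201 received 107.63 and 117.8 reads, or 92.82% and 96.53% of Zic2 TPM. The other annotated Zic2 transcript, the retained-intron form Zic2-202, received 2.37 and 1.20 reads.

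Zic5-201, the protein coding transcript of 4767 bases, received 345.99 and 378.87 reads, 89.9% and 89.8% of the gene's reads. The processed transcript Zic5-202, of 705 bases, received 39.01 and 43.13 reads, 10.1% and 10.2%. Because TPM divides by length, those few reads became 46.48% and 46.72% of Zic5 TPM, at 2.43 and 2.70 TPM against 2.80 and 3.08 TPM for Zic5-201. Only 122 bases of Zic5-202 lie in no other Zic5 transcript, and its deposited intervals were wide, 1.29 to 3.56 TPM in replicate 1 and 1.58 to 3.89 TPM in replicate 2. Both pools gave the same split to within 1 percentage point.

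Zic4 has 12 annotated transcripts, of which 6 are protein coding, 4 are retained introns and 2 are processed transcripts. The protein coding ones held 29.9% of Zic4 TPM in replicate 1 and 28.5% in replicate 2, and 44.3% and 42.8% of its reads. The retained-intron forms held 58.6% and 44.8% of its TPM. The leading transcript was Zic4-201, protein coding, in replicate 1 (25.72%, against 25.59% for the retained-intron Zic4-211) and Zic4-211 in replicate 2 (35.26% against 28.55%).

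Zic4-211 received almost the same number of reads in both pools, 78.77 and 78.79. Zic4-201 received 119.11 reads in replicate 1 and 95.97 in replicate 2. The protein coding transcripts Zic4-207, Zic4-208 and Zic4-210 had 0 reads in both pools, and Zic4-204 and Zic4-209 had 8 and 3.16 reads in replicate 1 and 0 in replicate 2. In replicate 2, Zic4-201 was the only protein coding form with reads.

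**Figure D2:**
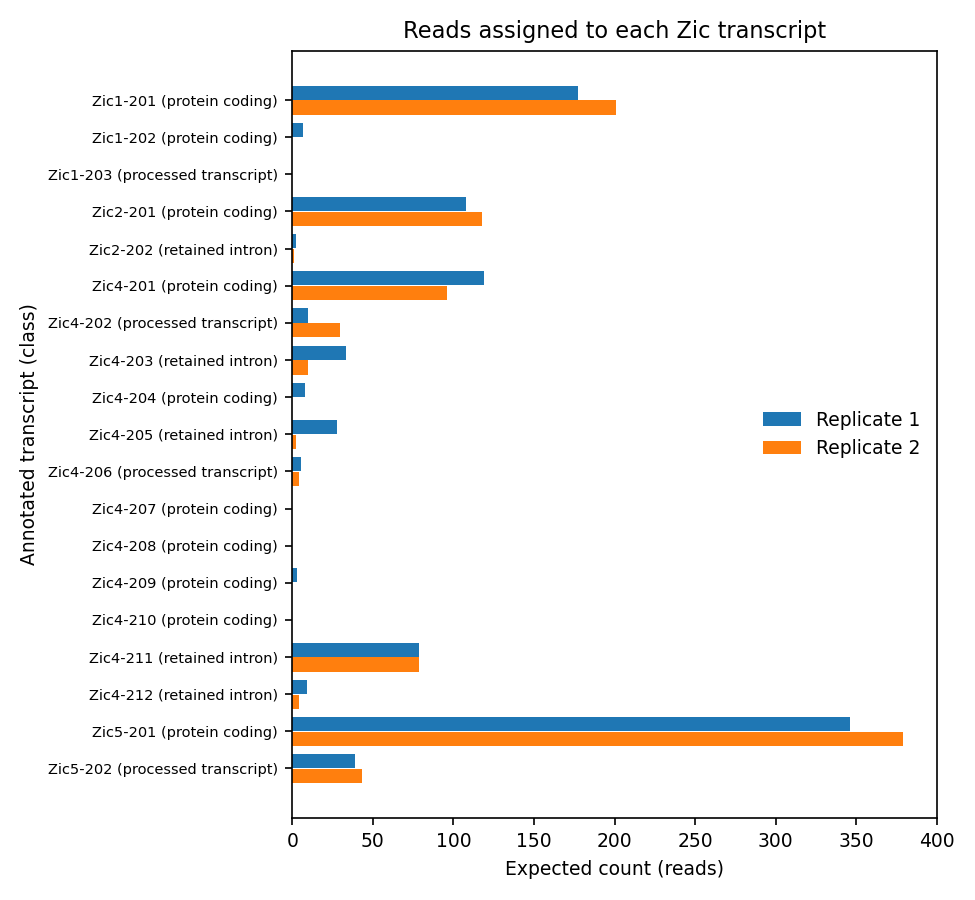
Expected counts (reads) of the 19 annotated Zic transcripts in replicate 1 (blue) and replicate 2 (orange), with the annotated class of each. Zic4-203 and Zic4-205 were high in replicate 1 (33.18 and 27.89 reads) and low in replicate 2 (9.46 and 2.18 reads).

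Restricted to protein coding transcripts, an alternative chosen after seeing the data, the order of the genes changed. Zic5 stayed highest at 2.94 ± 0.198 TPM (SD, n = 2), Zic2 followed at 1.82 ± 0.127, Zic1 at 1.35 ± 0.0495, and Zic4 was lowest at 1.17 ± 0.297. Zic4 was at 1.38 TPM in replicate 1, above the 1.31 TPM of Zic1, and at 0.96 TPM in replicate 2, below all the others. Zic5 exceeded Zic4 2.42-fold (1.44 to 4.08) and Zic1 2.10-fold (1.32 to 3.34). The other 4 pairs did not differ by more than the spread, among them Zic5 over Zic2 at 1.58-fold (0.934 to 2.68) and Zic2 over Zic4 at 1.53-fold (0.835 to 2.81).

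The position of the transcripts is shown by the map of the exons of both gene pairs. Zic1 and Zic4 overlap by 3398 bases of gene span, all through the far upstream start of Zic4-208. Their exons on opposite strands have 60 bases in common. On the Zic4 side these lie in Zic4-208, which had 0 reads. On the Zic1 side they lie in exons that include one of Zic1-201, which had 177.62 and 201 reads. Zic5 and Zic2 do not overlap and their starts lie 9758 bases apart. The use of read strand in the counting is not given in the sources used here. Reads of overlapping genes may therefore be mixed.

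**Figure D3:**
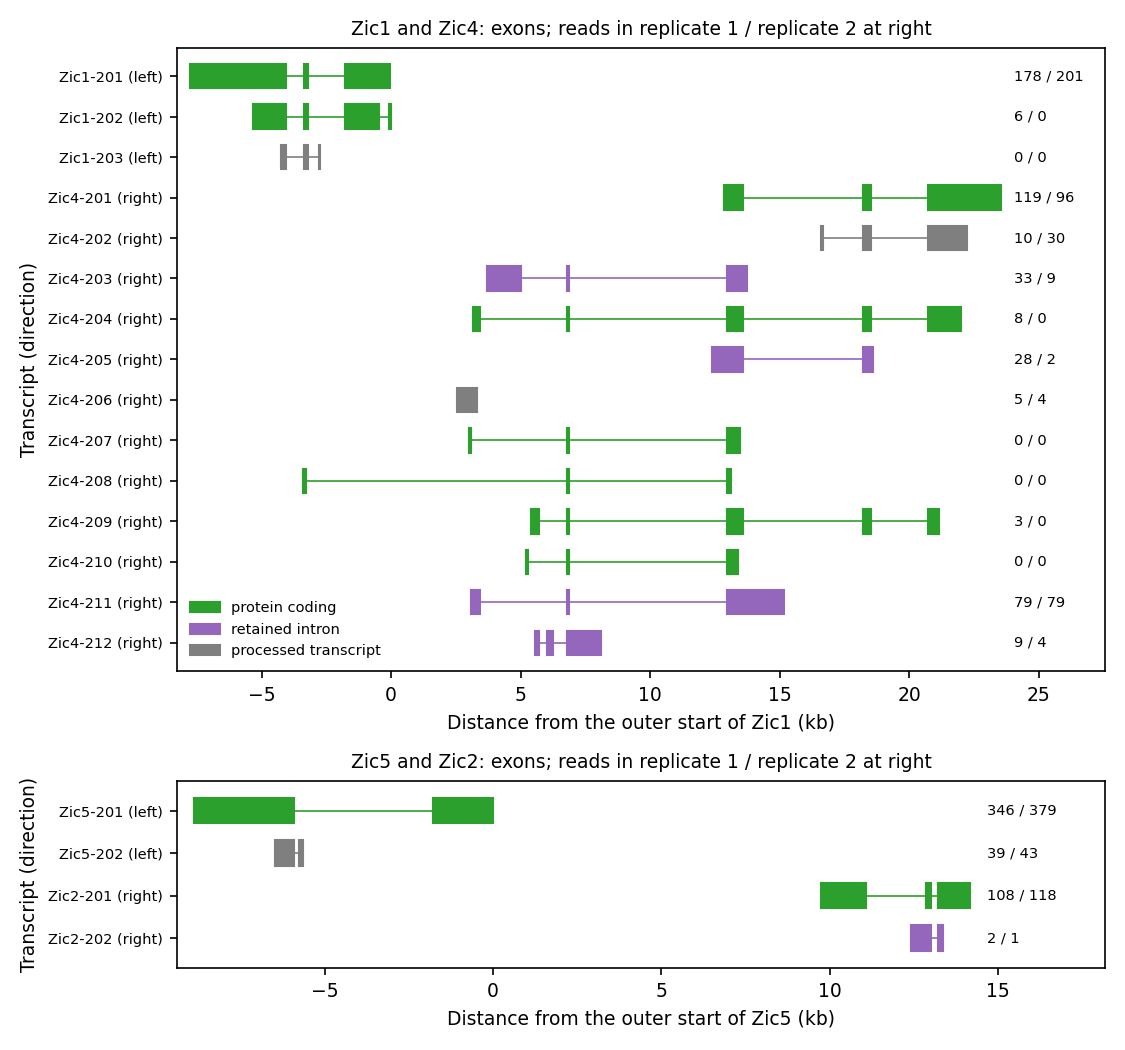
Exons (boxes) and introns (lines) of every annotated Zic transcript, plotted by distance in kb from the outer start of Zic1 (upper panel) or Zic5 (lower panel), coloured by annotated class, with reads in replicate 1 and replicate 2 at the right. Transcription runs away from the shared middle in both pairs, apart from the Zic4-208 start that reaches into Zic1.

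Other genes at these places received few reads. Gm37477 (chr9:91380519-91381402, minus strand), an unverified transcript antisense to Zic4, received 12.12 and 9.67 reads, and 369 of the 10385 100-base windows of Zic4 occur in it. The counts of Zic4 and Gm37477 are fractional, and their sums are whole, 306 and 234 reads, so reads were divided between these 2 genes on opposite strands. Of the Zic4 transcripts with reads, Zic4-211 has 468 exon bases in common with exons of the opposite strand. Zic5 shared 91 of its 4790 windows with Gm12241, a processed pseudogene on chromosome 11, which had 0 reads in both pools, while Zic1, Zic2 and Zic5 counts were whole.

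Within 100 kb, both enzyme genes beside Zic2 and Zic5 were higher than the Zic genes themselves. Pcca, a subunit of propionyl-CoA carboxylase, was at 24.5 and 27.7 TPM, and Clybl, a mitochondrial lyase, at 18.3 and 19.2 TPM. The non-coding 2610035F20Rik, which starts 236 bases from Zic2 on the other strand, was at 0.59 and 0.22 TPM. Gm5089 was at 0.47 and 0.42 TPM, Gm10837 at 0.26 and 0 TPM, and Gm9399 and Gm25464 were at 0. Around Zic1 and Zic4 no other gene in the tables exceeded the 0.58 TPM of Gm37477: A730094K22Rik was at 0.41 TPM in both pools, Gm29478 at 0.38 and 0.13, Gm37457 at 0.27 and 0.21, Gm37040 at 0.13 and 0.07, Gm37812 at 0.05 and 0.1, and Gm28652 at 0.

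Promoter sequence was available from RefSeq on GRCm38.p6 for Zic1, Zic4 and Zic5. It is shown because the windows of the divergent neighbours Zic1 and Zic4 differ in base composition. For Zic5 and Zic2 no such comparison could be made. The part upstream of the first exon of Zic1-202, Zic4-207 and Zic5-201, all protein coding, is printed, 5′ to 3′ on the strand of the gene, with capitals marking GC boxes (GGGCGG) and CCAAT boxes (CCAAT) found on either strand.
Zic1: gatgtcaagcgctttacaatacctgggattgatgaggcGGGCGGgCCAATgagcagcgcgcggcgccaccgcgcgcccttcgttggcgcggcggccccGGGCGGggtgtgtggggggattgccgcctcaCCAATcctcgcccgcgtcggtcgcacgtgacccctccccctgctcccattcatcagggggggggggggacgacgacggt
Zic4: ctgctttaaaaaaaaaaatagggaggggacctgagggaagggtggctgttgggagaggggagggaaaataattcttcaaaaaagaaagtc
Zic5: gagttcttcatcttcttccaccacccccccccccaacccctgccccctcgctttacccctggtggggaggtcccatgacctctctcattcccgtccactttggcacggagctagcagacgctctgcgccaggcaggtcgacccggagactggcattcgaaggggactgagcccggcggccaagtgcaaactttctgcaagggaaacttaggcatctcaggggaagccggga
The Zic1 stretch is at chr9:91365811-91366018 on the minus strand, that of Zic4 at chr9:91368722-91368811 on the plus strand and that of Zic5 at chr14:122465678-122465908 on the minus strand. In the full 300-base windows, G and C made up 65.3% for Zic1, 62.7% for Zic5 and 46% for Zic4, against a median of 52.7% over 32851 promoter windows. The Zic1 window held 31 CpG dinucleotides, that of Zic5 held 15 and that of Zic4 held 8, against a median of 7.

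The Zic1 window held 3 GC boxes and 2 CCAAT boxes, the Zic5 window 1 GC box and no CCAAT box, and the Zic4 window neither. Of all windows, 35.7% held a GC box and 37.4% a CCAAT box. A TATA box (TATAAA), a Gli core (TGGGTGGTC) and a Zic core (CCTGCTG) were searched on both strands and had no match in these 3 windows, and 13.6%, 0.253% and 10.5% of all windows held them. The Zic1 stretch ends before Zic1-202, which had 6.38 and 0 reads. Zic1-201, with 177.62 and 201 reads, starts further downstream at position 91365768, inside the Zic1 window. The Zic4 stretch ends at the first base before Zic4-207, which had 0 reads. It lies inside the first exon of the processed transcript Zic4-206, which had 5.13 and 4.17 reads, and Zic4-211 starts inside the 300-base window. Zic4-201, the coding form with most reads, starts downstream at position 91378642, outside that window.

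The pools were close in depth, with 40059176 reads assigned to genes in replicate 1 and 39531700 in replicate 2. After TMM scaling, which equalises the bulk of genes, the ratio of replicate 2 over replicate 1 was above 1 for Zic1 (1.12-fold), Zic2 (1.11-fold) and Zic5 (1.13-fold), while Zic4 was 1.27-fold higher in replicate 1. None of the 4 genes was 2-fold apart, against 0.56% of 14118 genes with mean counts of 50 or more that were higher in replicate 2 and 0.673% that were higher in replicate 1. Scaling by the spike-in total instead moved the median log2 ratio of all those genes by -0.22 and turned the ratios of Zic1, Zic2 and Zic5 to -0.05, -0.06 and -0.05 on the log2 scale.

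For Zic1, Zic2 and Zic5 the exact binomial 95% interval of the log2 ratio included 0 (-0.13 to 0.46 for Zic1, -0.23 to 0.54 for Zic2 and -0.03 to 0.37 for Zic5). For Zic4 the log2 ratio was -0.35 with an interval of -0.61 to -0.10. These intervals cover counting error only. Among the 200 genes nearest in mean count, 76.5% had a smaller ratio in absolute size than Zic4, 57.5% a smaller one than Zic5, 48.5% than Zic1 and 32.5% than Zic2.

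Of the Zic4 transcripts with a mean count of at least 10, 2 retained-intron forms were at least 2-fold higher in replicate 1. Zic4-203 received 33.18 reads in replicate 1 and 9.46 in replicate 2, and Zic4-205 received 27.89 and 2.18. Their deposited TPM intervals did not overlap between pools, 0.381 to 0.826 against 0.0699 to 0.313 for Zic4-203 and 0.385 to 1.04 against 0.00258 to 0.231 for Zic4-205. Together they went from 61.07 to 11.64 reads (4.51-fold), whereas the other 10 Zic4 transcripts went from 232.81 to 212.69 (1.06-fold after scaling). Without them, an alternative chosen after seeing the data, the Zic4 log2 ratio was -0.09. The other 10 combine a rise in Zic4-202, from 9.64 to 29.76 reads, with falls such as that of Zic4-201, from 119.11 to 95.97. The split therefore does not place the difference in these 2 transcripts alone.

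In the opposite direction, the processed transcript Zic4-202 received 9.64 reads in replicate 1 and 29.76 in replicate 2, with deposited intervals that overlapped. Of the 9 Zic transcripts with a mean count of at least 10, 2 were at least 2-fold higher in replicate 1 and 1 in replicate 2. Over all 43538 transcripts at that minimum, 6.59% were higher in replicate 1 and 6.07% in replicate 2. Among 8404 retained-intron transcripts the shares were 5.27% and 5.16%. Transcripts of a gene share exons, so a read count of 1 transcript depends on how reads were divided among them.

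**Figure D4:**
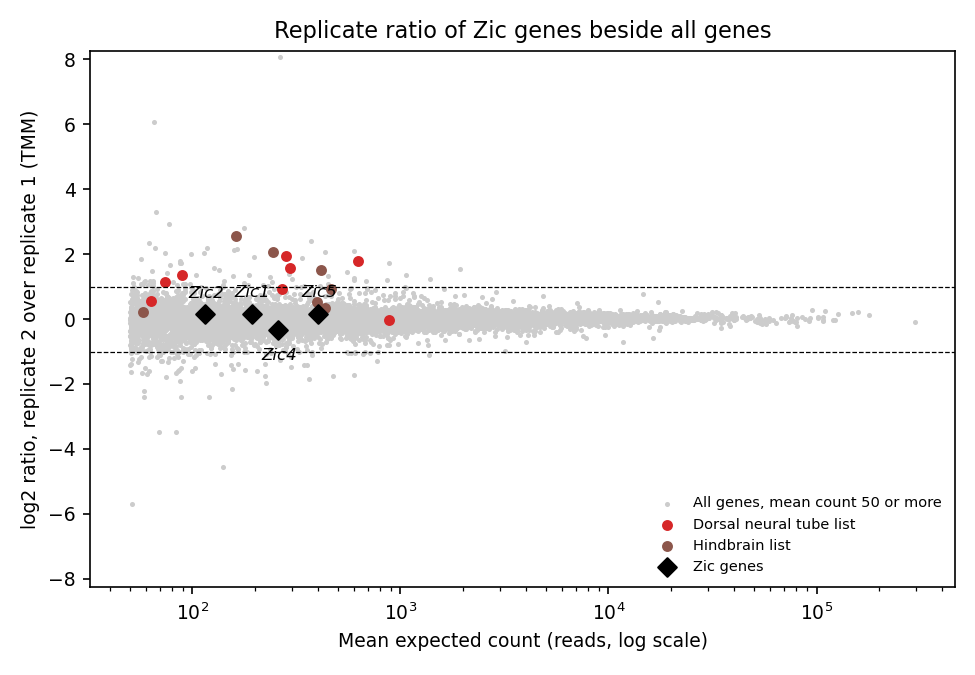
log2 ratio of replicate 2 over replicate 1 after TMM scaling (vertical axis) against mean expected count (horizontal log axis) for 14118 genes in grey, with Zic genes as black diamonds and listed dorsal neural tube and hindbrain genes in red and brown. Dashed lines mark 2-fold. The Zic genes lie between -0.35 and 0.17, whereas 5 dorsal neural tube and 3 hindbrain genes lie above the upper line.

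Genes of the dorsal neural tube, a site of Zic expression in the embryo, differed between the pools. Of a list of 10, 5 reached 1 TPM in both pools, and 8 had a mean count of at least 50, with a median log2 ratio of 1.25 against 0.01 over all genes. At least 2-fold higher in replicate 2 were Msx3 (2.17 and 8.25 TPM), Rfx4 (3.24 and 12.8 TPM), Olig3 (2.91 and 8.61 TPM), Atoh1 (0.95 and 2.46 TPM) and Wnt3a (0.65 and 1.44 TPM). Lhx2, at 16.62 and 14.97 TPM, was not. Wnt3a and Atoh1 were undetected, as were Wnt1, Gdf7 and Bmp6, at mean levels of 1.06, 0.115 and 0.59 TPM. None of the 10 had 0 reads in both pools. The summed level of the list went from 30.3 to 54.6 TPM. The sum of the 4 Zic genes went from 13.0 to 12.5 TPM. Within that sum, Zic1, Zic2 and Zic5 were slightly higher in replicate 2, and Zic4 was lower (4.61 and 3.36 TPM).

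The hindbrain list moved the same way. Of its 8 genes, 6 were detected, the median log2 ratio was 0.94, and Hoxb1 (1.03 and 5.91 TPM), Hoxb2 (4.92 and 14.2 TPM) and Hoxd3 (1.38 and 5.78 TPM), which pattern hindbrain segments, were at least 2-fold higher in replicate 2. Egr2 and En2 were undetected, and the summed level went from 27.7 to 56.3 TPM. The part of these tissues in the Zic values was not tested.

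Among forebrain and neural progenitor genes, 13 of 14 were detected, with a median of 9.56 TPM. The highest were Fabp7 (107 TPM), Hes5 (98.6 TPM) and Nes (34.1 TPM), and Sox1 was below 1 TPM. Dbx1 (4.34 and 18.3 TPM) and Neurog2 (2.70 and 5.89 TPM) were at least 2-fold higher in replicate 2, and Nkx2-1 (7.62 and 3.66 TPM) in replicate 1.

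Facial mesenchyme and ectoderm markers were looked at beside the tissue label. Their detection does not set the tissue apart, because all 10 neuron and ganglion genes were also detected, with a median of 50.3 TPM. All 10 mesenchyme markers were detected with a median of 50.1 TPM, led by Msx1 (292 TPM), Prrx1 (107 TPM) and Prrx2 (76.98 TPM), so each was above every Zic gene. Of 10 ectoderm markers, 9 were detected, led by Krt18 (84.7 TPM), Krt8 (81.5 TPM) and Cldn6 (62.9 TPM). Krt5, at 4.62 and 0.98 TPM, was the undetected one and was higher in replicate 1.

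The Gli and Glis relatives of the Zic genes were mostly higher. All 6 Gli and Glis genes were detected with a median of 10.7 TPM, and 4 of them exceeded Zic5. Gli3, the main repressor of the Hedgehog pathway, was at 29.0 TPM, Gli2, its main activator, at 12.2 and Gli1, a target gene, at 9.22 TPM. Glis2 was at 18.9 TPM. Glis1 (4.58 TPM) and Glis3 (1.65 TPM) fell within the Zic range of 1.35 to 5.51 TPM. Of 16 genes linked to holoprosencephaly, 13 were detected with a median of 12.1 TPM. Tgif1 (93.5 TPM), Gas1 (65.7 TPM), a Hedgehog co-receptor, and Fgfr1 (56.1 TPM) led them. Foxh1, Nodal and Tdgf1, of the Nodal pathway, were undetected. Among those with a mean count of at least 50, which were all 6 Gli and Glis genes and 13 of the 16, none was 2-fold apart.

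Genes listed as partners of Zic factors or as linked to them were all detected, 11 of 11, with a median of 30.2 TPM and none 2-fold apart. Ctnnb1 (409 TPM), Ddx5 (268 TPM) and Parp1 (243 TPM) were the highest. Of the 13 neural plate border and crest genes, 12 were detected with a median of 27.4 TPM, led by Msx1, Sox9 (92.5 TPM) and Dlx5 (70.1 TPM), and Foxd3, a marker of early crest, was undetected at 0.47 TPM.

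Periocular and calvarial mesenchyme genes, 9 of 12 detected, had a median of 15.1 TPM, with Prrx1 and Alx1 (63.3 TPM) the highest. Lmx1b, En1 and Runx2 were undetected, and Runx2 (1.72 and 0.44 TPM) was at least 2-fold higher in replicate 1. Eye and pigment genes, 7 of 10 detected, had a median of 2.37 TPM, within the Zic range. Pmel (14.6 and 6.93 TPM) was at least 2-fold higher in replicate 1, Rax (6.46 TPM) and Six6 (6.37 TPM) followed it, and Tyrp1, Crybb3 and Cryaa were undetected.

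Olfactory placode genes were all detected, 9 of 9, with a median of 11.4 TPM, among them Eya1 (41.4 TPM) and Ebf1 (33.7 TPM). Neuron and ganglion genes were also all detected, 10 of 10, with a median of 50.3 TPM, led by Tubb3 (190.4 TPM), Nefm (92.5 TPM) and Nefl (84.5 TPM). Of 7 somite and muscle genes, 4 were detected with a median of 2.04 TPM, led by Tcf15 (8.21 TPM), Myf5 (3.79 TPM) and Uncx (3.76 TPM). Myod1 (1.68 and 0.50 TPM) and Pax1 (1.97 and 0.78 TPM) were at least 2-fold higher in replicate 1, and both were undetected, as was Tbx6.

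**Figure D5:**
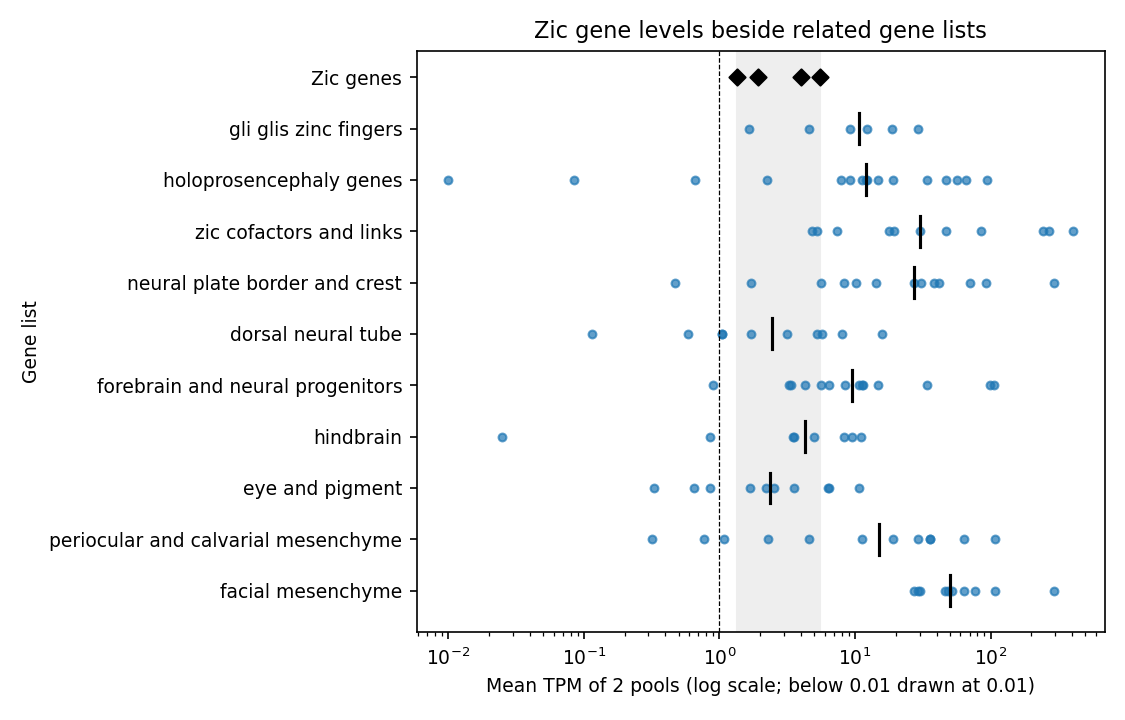
Mean TPM of 2 pools (log axis) of the Zic genes (black diamonds, top) and of the genes of 10 lists (blue points, median as a black bar), with the dashed line at 1 TPM and the Zic range shaded. Of the lists drawn, the medians of the dorsal neural tube, hindbrain and eye and pigment lists fall in the shaded range. All 10 facial mesenchyme genes lie to its right. The somite and muscle list, not drawn, had a median of 2.04 TPM, also in that range.

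Over the 2 pools, the listed genes with levels most like each Zic gene were found by distance in log2(TPM + 0.1). For Zic5 they were Tfap2a (distance 0.15) and Rnf180 (0.26). For Zic4 they were Uncx (0.12), Myf5 (0.19) and Dlx6 (0.29). For Zic2 they were Tbx18 (0.33), Glis3 (0.45) and Mitf (0.46), and for Zic1 they were Glis3 (0.49), Mitf (0.53) and Wnt1 (0.57). With 2 pools such a likeness is mainly one of level.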

How the data were processed

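Total RNA was sequenced from 2 pools of 1 group. Expected counts per gene and transcript were deposited as estimated by the authors, not normalized. TPM values were scaled by the authors over all features of each file, spike-in controls included. The percent of a gene's TPM held by each transcript was deposited by the authors. Per the accompanying notes, reads were placed on mm10 and quantified against GENCODE M4, with replicates not pooled. The aligner and quantifier are not given in the sources used here. Gene and transcript names, classes and positions came from GENCODE M21 on GRCm38 through the gene identifier, with a symbol for 42462 of 43346 genes. Promoters were taken from RefSeq for 3 members. Zic2 was not matched.

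Replicate ratios used expected counts scaled by TMM (edgeR 4.0.16, R 4.3.3) with a prior count of 2; DESeq2 1.42.0 size factors, total count and spike-in total (1433638 and 1621653 reads) were alternatives. Levels and intervals were computed with Python 3.11.15, numpy 2.4.6, scipy 1.17.1 and pandas 2.3.3. The pooled replicate spread does not cover gene-specific errors such as those of transcript length. The ratio and its TMM scaling were run on simulated counts with equally many genes raised and lowered. Such counts hold no shift of all genes, so they cannot decide between TMM and spike-in scaling. Leaving out each replicate in turn was also tried.

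The genes named are the members with all transcripts, genes within 100 kb, the 3 listed genes nearest in level to each member and, of each of 14 lists (137 distinct genes), the 3 highest, all undetected and all at least 2-fold apart. Members and lists were chosen with earlier results of these data known. Some genes and sequences that fall under this rule are not reported here.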

Additional observations from a re-analysis of the deposited data

How the results depend on the processing

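Of the alternative values, 84 held, meaning that they stayed on their side of the limit. Where no test was run, it means a move of less than the replicate spread, or less than 1.5 times for counts of genes. The others moved by more (19), no longer passed the limit (6) or reversed in sign (2). Among the 84, the log2 ratios of Zic1 and Zic2 turned to -0.05 and -0.06 with spike-in scaling. TPM rescaled over Ensembl genes moved Zic5 to 6.01, Zic2 to 2.10 and Zic1 to 1.47 TPM, and posterior mean TPM moved Zic1 to 1.52. With protein coding transcripts only, chosen after seeing the data, levels were 2.94 (Zic5), 1.82 (Zic2) and 1.17 TPM (Zic4), and the log2 difference of Zic4 turned to -0.61 against Zic2 and -0.21 against Zic1; fewer transcripts were summed. Zic5 over Zic4 (0.47) was lost with a pseudocount of 0.01 (0.48), posterior mean TPM (0.21) and 50 genes for the spread (0.47), and ranged from 0.18 to 0.77 with each replicate left out. Zic4 over Zic2 ranged from 0.73 to 1.26. The cause was not tested.

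The Zic5 replicate log2 ratio was -0.045 with spike-in scaling, and that of Zic4 was -0.091 without Zic4-203 and Zic4-205, also chosen after seeing the data. Genes 2-fold apart numbered 79 higher in replicate 2 and 95 in replicate 1. They became 281 and 403 at a mean count of 10, 1200 and 1187 at any count, and 280 and 375 at 1.5-fold, each of which admits more genes. Posterior shares were 52.9% for Zic5-201, 91.6% for Zic2-201 and 82.1% for Zic1-201. At a TPM of 5, 1 Zic gene was detected. No paired analysis was possible because there is 1 group. Depth limits Zic2 most, at 110 and 119 reads.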
